A study of Mus musculus with 32 samples.

Results

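LSK cells were compared with progenitor cells of the same mice in the CreER controls of a study of HBO1, a histone acetyltransferase encoded by Kat7. The comparison takes 8 of the 32 RNA sequencing libraries of the series. They are the 4 LSK and the 4 progenitor libraries whose column names carry the CreER control label, joined in pairs by the mouse number in that name. All genes that passed a filter on low counts were described, which was 13313 of the 27179 genes in the table. LSK cells are bone marrow cells of the mouse that carry Sca-1 and Kit and lack the antigens of mature lineages, a gate that holds the blood stem cells and the multipotent progenitors just below them. The labels call the other population progenitor cells and do not give its gate.

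All 8 libraries came from adult C57BL/6 mice of genotype Hbo1fl/+;CreER, treated with tamoxifen. Their Cre is RosaCreERT2, a recombinase driven by a broadly active locus and switched on by tamoxifen in any tissue that carries it. Titles state that 1 of the 2 Hbo1 alleles was deleted in these controls, while the treatment text calls them wild type, so heterozygosity rests on the titles and the design text. Both populations of a mouse share its genotype, Cre and tamoxifen treatment, and how complete the deletion was in each population was not tested. Mice 911, 918, 937 and 940 are called mice 1 to 4 here. Mice 1 to 3 are labelled female and mouse 4 male, and each gave 1 library of LSK cells and 1 of progenitors. They are separate animals, so the spread between libraries of a population is a spread between mice. Set against them in the last comparisons are Mx1Cre controls (Hbo1fl/+;Mx1Cre, given polyIC, which induces interferon and through it the Cre) and CreER knockouts (Hbo1fl/fl;CreER, given tamoxifen, both alleles deleted), each with 4 mice and both populations.

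Blood formation is usually drawn as a descent from long-term stem cells, which are mostly out of cycle and sit in a bone marrow niche, through multipotent progenitors to cells committed to red cells, platelets, granulocytes, monocytes or lymphocytes. Sca-1 (Ly6a) is lost and markers such as the Fc gamma receptors are gained as multipotent cells turn into committed myeloid progenitors, while Kit is kept by both. Transcription factors such as MECOM, HLF and MEIS1 hold the stem cell state, GATA1 and KLF1 drive the red cell program, and granule proteases such as neutrophil elastase mark the granulocyte path.

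The deposited counts summed to between 8503104 and 12487315 per LSK library and between 8779171 and 13233412 per progenitor library. The first principal component held 59.8% of the variance and separated the populations, and the second held 12.3% and set both libraries of mouse 3 apart from the others. The slope of log2 CPM on log2 exon length also differed between libraries. It was 0.314 in LSK cells and 0.376 in progenitors of mouse 3, and 0.420 and 0.359 in those of mouse 4. In the libraries of mice 1 and 2 it lay between 0.459 and 0.476. The part of this slope in the values of mouse 3 was not tested. Both libraries of a mouse deviated together from their group means, with correlations between 0.225 and 0.418. Genes on the sex chromosomes matched the sex labels in all 8 libraries. Levels are given as CPM, which are counts scaled to 1 common library total with TMM factors, and are listed in the order of mice 1 to 4. Log2 fold changes are LSK over progenitors, from edgeR's quasi-likelihood fit of 4 pairs with the mouse as a block. Each is given with a standard error (SE), taken as its size divided by the square root of the F statistic of its test. A gene was called when its p, adjusted by Benjamini-Hochberg over the 13313 genes, was under 0.05, and a stricter call tested the same fit against a fold of 1.5. In bulk RNA, fewer cells of a type and less RNA per cell cannot be told apart.

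Kat7 itself was not called. It had 72.9, 77.6, 54.1 and 72.8 CPM in LSK cells and 79.8, 71.0, 69.1 and 73.7 CPM in progenitors (log2 fold change -0.09 ± 0.09, adjusted p = 0.442). The populations overlap in Kat7, and LSK cells of mouse 3 are the lowest library. The gene lies on chromosome 11 at 95271853 to 95310246 of mm10.

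Across all genes, 5005 were called, or 37.6% of those tested. Of these 2531 were higher in LSK cells, or 19.0%, and 2474 were lower, or 18.6%. Against a fold of 1.5 the calls were fewer and leaned towards LSK cells. There were 1146 of them, or 8.61% of the genes tested, of which 769 were higher (5.78%) and 377 lower (2.83%). Among called genes, 275 were at least 4-fold higher and 98 at least 4-fold lower. In 3654 genes, or 27.4%, the 4 LSK values did not overlap the 4 progenitor values. Without a block on the mouse the count of called genes was 3321, of which 1842 were higher and 1479 lower. The median log2 fold change of all genes tested was -0.02, so list medians can be read against 0. Counts of list members called are to be read against the 19.0% higher and 18.6% lower over all genes. Counts of members without overlap are to be read against 27.4%.

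**Figure D1:**
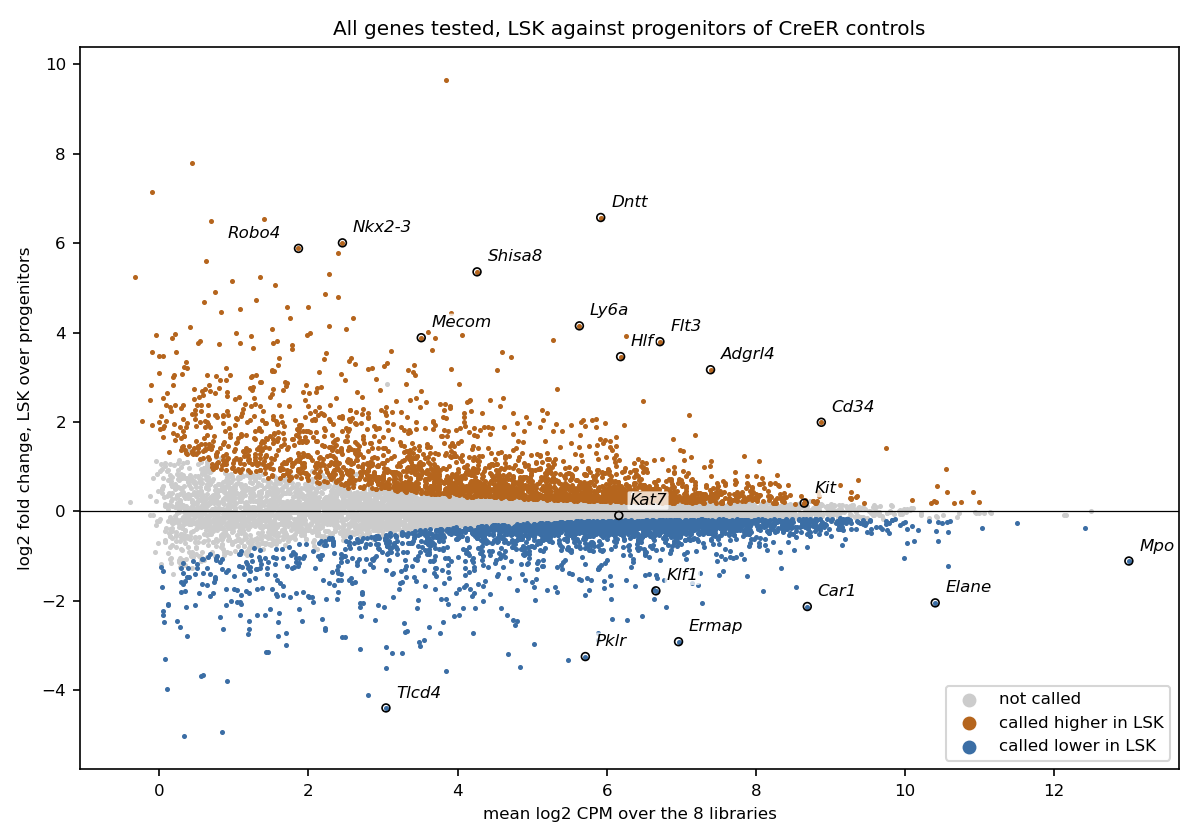
Each point is 1 of the 13313 genes tested, with its mean log2 CPM over the 8 libraries on the x axis and its log2 fold change, LSK over progenitors, on the y axis. Brown points were called higher in LSK cells (2531), blue points lower (2474) and grey points were not called, and the labelled genes reach from Dntt at 6.57 to Tlcd4 at -4.40, with Kat7 and Kit near 0.

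The sort markers went with the labels. Of 10 such genes, 7 were called higher in LSK cells and 2 lower, against backgrounds of 19.0% and 18.6%, or 4 higher without the block. Ly6a, which encodes the Sca-1 antigen that defines the gate, had 120, 72.3, 114 and 71.6 CPM in LSK cells, against 6.37, 5.29, 4.89 and 4.60 CPM in progenitors. Every LSK library lay far above every progenitor library, and the fold was 17.7 (log2 fold change 4.15 ± 0.12, adjusted p = 1.68e-11). Ly6a lies on chromosome 15 at 74994877 to 74998031 of mm10. Kit, the stem cell factor receptor, was present in all 8 libraries at like levels, with 447, 454, 381 and 420 CPM in LSK cells and 440, 401, 329 and 336 CPM in progenitors. Its log2 fold change was 0.18 ± 0.06 (adjusted p = 0.0361), but the populations overlap, and the call was lost without mouse 2, 3 or 4 (adjusted p = 0.107, 0.0757 and 0.165) and without the block (0.247).

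Cd34, a surface sialomucin lost by long-term stem cells in adult mice and shown by multipotent and granulocyte-monocyte progenitors, had 772, 781, 751 and 698 CPM in LSK cells, against 193, 145, 234 and 190 CPM in progenitors. The LSK levels were 3.98-fold higher and spread little between mice. Flt3, a receptor tyrosine kinase of multipotent and lymphoid-primed cells, had 186, 226, 167 and 203 CPM in LSK cells, against 10.7, 13.8, 11.1 and 21.7 CPM in progenitors. Its log2 fold change of 3.80 ± 0.13 was among the largest (adjusted p = 3.73e-11). Fcgr3, which encodes the Fc gamma receptor III that marks granulocyte-monocyte progenitors, ran the other way, with 19.3, 17.3, 39.1 and 24.5 CPM in LSK cells and 76.4, 71.3, 116 and 68.0 CPM in progenitors. It had a log2 fold change of -1.75 ± 0.11, with no overlap. Its close relative Fcgr2b, an inhibitory Fc receptor, had a smaller log2 fold change of -0.47 ± 0.09 (adjusted p = 8.72e-04). Slamf1, the CD150 antigen of long-term stem cells, had 13.7, 10.1, 4.54 and 10.3 CPM in LSK cells and 17.1, 14.6, 6.57 and 7.27 CPM in progenitors, and was not called (adjusted p = 0.414).

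Lineage antigens used to deplete mature cells were low. The 10 genes together summed to between 29.4 and 46.0 CPM in LSK cells and between 51.1 and 77.1 CPM in progenitors, and the granulocyte and monocyte integrin gene Itgam made up most of both sums. Cd3e, the CD3 epsilon subunit of the T cell receptor complex, reached at most 0.465 CPM in an LSK library and 0.444 CPM in a progenitor library. The part of these antigens in other differences was not tested.

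**Figure D2:**
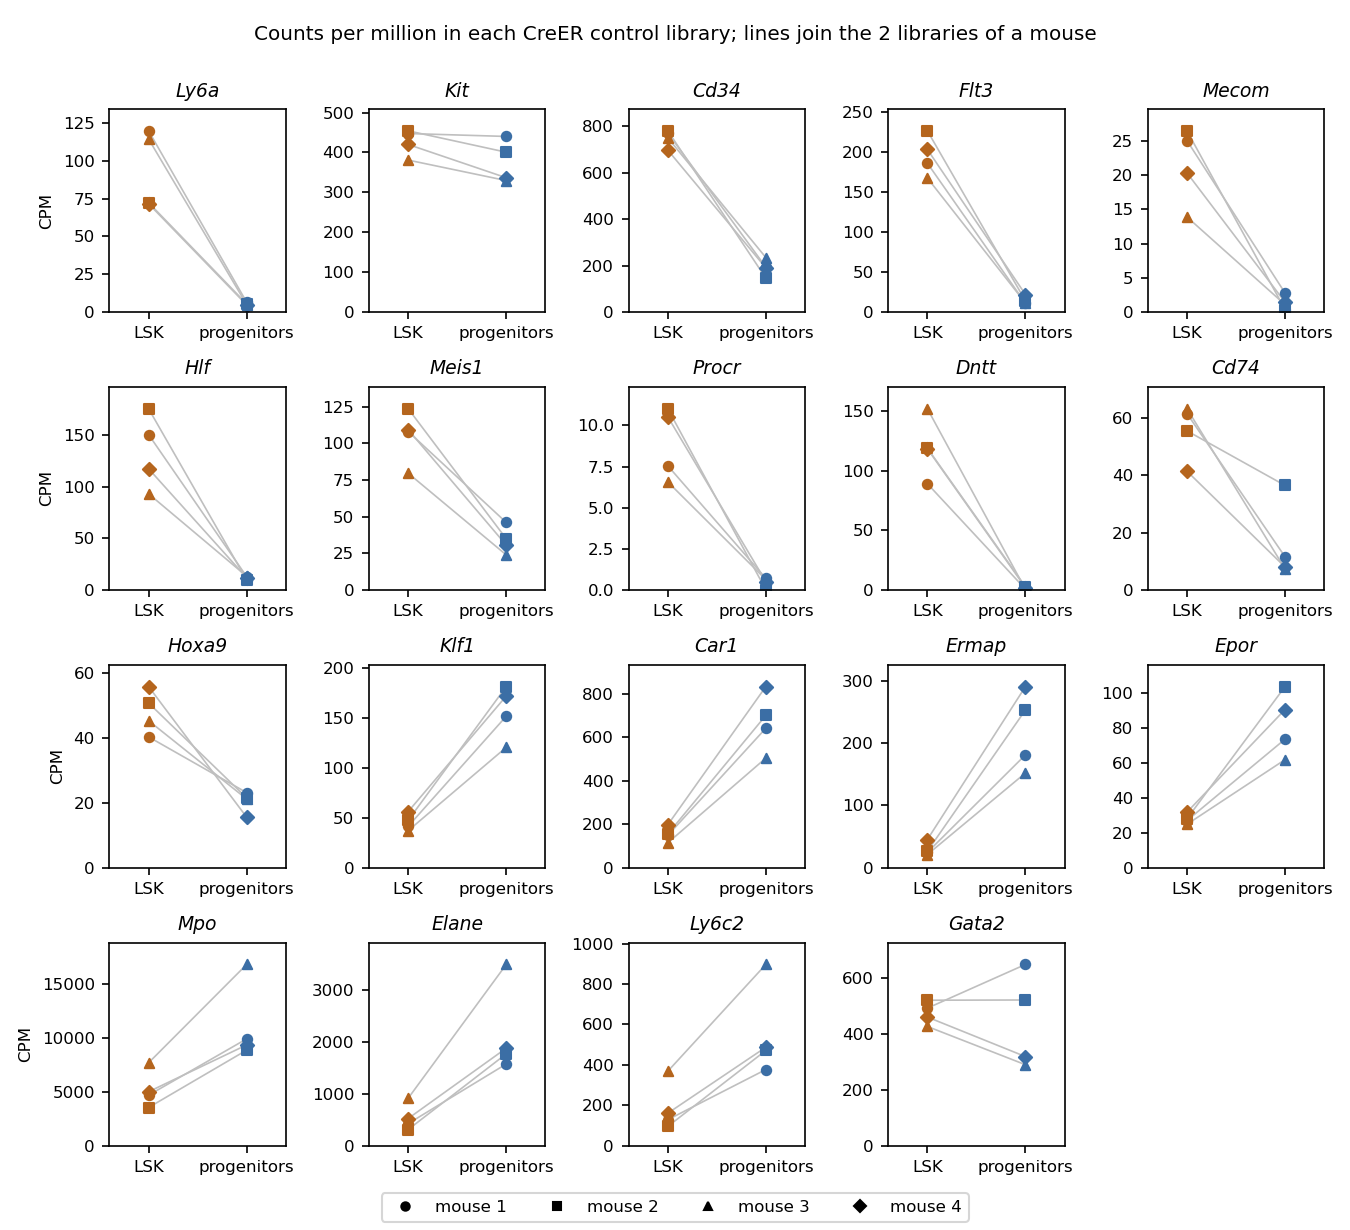
Levels of 19 genes in CPM, with LSK cells left and progenitors right in each panel and a line joining both libraries of a mouse, whose number the marker shape gives. Ly6a, Cd34, Flt3, Mecom and Dntt lie higher in every LSK library, Klf1, Car1, Ermap and Elane higher in every progenitor library, and Kit and Gata2 overlap.

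Stem cell transcription factors were mostly higher in LSK cells. Of 24 such genes, 20 were called higher and 2 lower, and 11 were higher against a fold of 1.5 and none lower. Their median log2 fold change was 0.78, beside -0.02 over all genes tested. Values of 15 of the 24 did not overlap between the populations, beside 27.4% of all genes tested. The count of higher calls stayed between 15 and 20 in every alternative run.

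Mecom, which encodes the zinc finger factor EVI1 that long-term stem cells need, had 25.1, 26.5, 13.9 and 20.4 CPM in LSK cells, against 2.76, 0.345, 1.07 and 1.42 CPM in progenitors. The log2 fold change was 3.88 ± 0.28 (adjusted p = 5.86e-08), with mouse 3 lowest among LSK cells. Hlf, a PAR bZIP factor that keeps stem cells out of cycle, had 151, 176, 93.2 and 117 CPM in LSK cells, against 12.7, 9.54, 13.1 and 11.6 CPM in progenitors. It was 11.0-fold higher (log2 fold change 3.46 ± 0.15, adjusted p = 5.46e-10). Nkx2-3, a homeobox factor, had 11.3, 12.2, 9.17 and 10.3 CPM in LSK cells, against 0.230, 0, 0.267 and 0.0836 CPM in progenitors. Its log2 fold change of 6.01 ± 0.38 rests on 7 counts in all over the progenitor libraries.

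The HOX cofactor Meis1 and the ETS factor Erg differed by less. Meis1, which binds DNA together with HOX proteins, had 108, 124, 79.6 and 109 CPM in LSK cells, against 46.0, 34.8, 23.8 and 30.5 CPM in progenitors, a fold of 3.15. Erg, which serves stem cell maintenance, was higher by 1.43 ± 0.11 on the log2 scale. Prdm16, a methyltransferase-like factor of stem cell upkeep, was higher by 1.24 ± 0.16, with LSK cells of mouse 3 at 9.75 CPM, against 15.2 to 16 CPM in the other LSK libraries.

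The other 4 members were Tal1, Gfi1b, Gata2 and Bmi1. Tal1, a helix-loop-helix factor of stem cells and red cells, had a log2 fold change of -0.34 ± 0.06 (adjusted p = 7.09e-04), and Gfi1b, a repressor needed for both red cells and platelets, one of -0.56 ± 0.08 (adjusted p = 4.65e-05). Neither call held without the block on the mouse (adjusted p = 0.0992 for Tal1 and 0.0514 for Gfi1b). Gata2, the GATA factor of early progenitors, had 492, 520, 426 and 460 CPM in LSK cells and 648, 521, 289 and 318 CPM in progenitors. The progenitor values lay on both sides of the LSK values and the gene was not called (log2 fold change 0.17 ± 0.12, adjusted p = 0.287), although it was without mouse 1 (0.38, adjusted p = 0.0180). Bmi1, a Polycomb subunit of stem cell self-renewal, had 96.4, 78.0, 76.2 and 73.3 CPM in LSK cells and 83.5, 86.8, 64.8 and 72.1 CPM in progenitors, and was not called (adjusted p = 0.496).

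Markers of long-term stem cells followed the same direction with larger differences. Of 26 listed genes, 24 passed the filter, and of these 20 were called higher and none lower, with 15 higher against a fold of 1.5. Hoxb5 and Gprc5c stayed under the filter. The median log2 fold change was 1.25, and it lay between 1.06 and 1.45 within each mouse. Summed levels were 2385, 2410, 1828 and 2154 CPM in LSK cells, against 1323, 928, 793 and 881 CPM in progenitors.

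Procr, the protein C receptor EPCR, had 7.55, 11.0, 6.57 and 10.5 CPM in LSK cells, against 0.691, 0, 0.622 and 0.501 CPM in progenitors (log2 fold change 4.15 ± 0.39). Robo4, a guidance receptor of stem cells and vessels, had 8.71, 8.04, 5.41 and 6.21 CPM in LSK cells, against 0.230, 0, 0 and 0.167 CPM in progenitors, which is 5 counts in all. Both were several-fold higher in every mouse, with adjusted p of 1.21e-06 for Procr and 1.33e-07 for Robo4. Fgd5, a guanine nucleotide exchange factor used as a stem cell reporter, was higher by 4.57 ± 0.35 on the log2 scale, and Vldlr, a lipoprotein receptor, by 3.89 ± 0.21.

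Angiopoietin 1 and its receptor both differed, the ligand more. Angpt1 had 369, 334, 265 and 313 CPM in LSK cells, against 192, 137, 99.2 and 126 CPM in progenitors (log2 fold change 1.24 ± 0.08, adjusted p = 2.06e-08). Tek, which encodes the receptor TIE2, had 25.2, 21.0, 17.8 and 13.8 CPM in LSK cells and 18.8, 14.5, 9.24 and 6.94 CPM in progenitors. It was higher in LSK cells of all 4 mice (0.71 ± 0.14, adjusted p = 0.00116), though the populations overlap and the call was lost without the block (adjusted p = 0.125). The 4 members with no call were Slamf1, Vwf, Mllt3 and Sult1a1. Vwf, the von Willebrand factor of platelet-biased stem cells, had 27.9, 27.5, 15.2 and 33.8 CPM in LSK cells and 36.3, 21.8, 17.9 and 23.4 CPM in progenitors. Mllt3, a chromatin reader of stem cell maintenance, had a log2 fold change of -0.28 ± 0.11 (adjusted p = 0.0545) and was called lower without mouse 3 (adjusted p = 0.0462) and with limma-voom (0.0436).

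Quiescence genes split by member. Of 20 such genes, 7 were called higher and 1 lower, and 2 were higher against a fold of 1.5, so most of them did not pass. Without the block the higher calls were 3. Cdkn1c, which encodes the CDK inhibitor p57 of resting stem cells, had 2.32, 5.26, 3.38 and 5.19 CPM in LSK cells, against 0.537, 1.38, 0.267 and 1.34 CPM in progenitors (log2 fold change 2.24 ± 0.34, adjusted p = 1.26e-04). Ndn, the imprinted growth suppressor necdin, was higher by 4.45 ± 0.52, with between 2.51 and 3.97 CPM in LSK cells and 6 counts in all in progenitors. The inhibitor p21 ran the other way. Its gene Cdkn1a had 50.4, 50.2, 46.1 and 51.5 CPM in LSK cells, against 72.5, 76.8, 68.4 and 77.4 CPM in progenitors, with no overlap (-0.57 ± 0.08, adjusted p = 3.82e-05).

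Few cyclin genes were called. Of 12 cyclins and their kinases, 2 were called in each direction, or 16.7%, which is near the backgrounds of 19.0% and 18.6%. Ccnd1, cyclin D1 of the G1 phase, had 92.1, 93.2, 52.5 and 91.0 CPM in LSK cells, against 28.9, 33.9, 37.0 and 44.3 CPM in progenitors, a fold of 2.25. Ccne1, cyclin E1 of S phase entry, had 33.4, 35.0, 34.5 and 30.02 CPM in LSK cells, against 50.7, 71.1, 73.1 and 77.3 CPM in progenitors. It had a log2 fold change of -1.03 ± 0.11 (adjusted p = 3.64e-06). Cdk6, the kinase partner of D cyclins, had a log2 fold change of -0.56 ± 0.11 and was called lower, a call lost without the block (adjusted p = 0.0998).

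Genes of dividing cells differed little in size. Of 44 genes of G2 and mitosis, 9 were called higher and 2 lower, and none in either direction against a fold of 1.5, with a median of 0.09. The higher share of 20.5% is near the 19.0% over all genes, and the higher calls were 5 without mouse 2 and 2 without the block. Mki67, the proliferation antigen Ki-67, had 563, 677, 440 and 807 CPM in LSK cells, against 733, 1059, 657 and 1015 CPM in progenitors. It was lower in LSK cells of every mouse (-0.48 ± 0.07, adjusted p = 4.19e-05), although the populations overlap and the call was lost without the block (0.0942). Cdc25b, a phosphatase that starts mitosis, was higher by 0.88 ± 0.15. Summed over the list, levels ran with the mouse and not with the population, at 5020, 6392, 5884 and 7408 CPM in LSK cells and 4862, 6479, 5532 and 7358 CPM in progenitors.

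Origin licensing genes, which load the replicative helicase and which the HBO1 protein has been tied to, were lower in part. Of 19 such genes, 10 were called lower and 1 higher, none of them against a fold of 1.5, with a median of -0.19. Cdc6, a helicase loader, had 89.6, 78.7, 79.6 and 74.0 CPM in LSK cells, against 106, 109, 111 and 105 CPM in progenitors (-0.42 ± 0.08, adjusted p = 4.60e-04). Mcm5, a subunit of that helicase, had a log2 fold change of -0.18 ± 0.06, and this call was lost without mouse 2, 3 or 4. Of 30 S phase genes, 5 were called lower and 2 higher, which is at or under the background, and the lower calls were 2 or 3 when a mouse was left out.

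Hoxa genes, which pattern the body axis in embryos, were higher in LSK cells. Of 11 Hoxa genes, 7 passed the filter, and 6 of these were called higher, all 6 against a fold of 1.5, with a median log2 fold change of 1.56. Hoxa9, a homeobox factor of stem cell expansion, had 40.3, 50.7, 45.3 and 55.8 CPM in LSK cells, against 23.1, 21.5, 21.1 and 15.5 CPM in progenitors. It was 2.37-fold higher with no overlap (adjusted p = 5.71e-06). Hoxa10 was higher by 2.68 ± 0.31. Hoxa4 alone of the 7 was not called, with 1.05, 2.88, 1.83 and 1.73 CPM in LSK cells and 1.84, 2.53, 2.58 and 1.92 CPM in progenitors. Only 3 of 10 Hoxb genes passed the filter. Of these 2 were called higher, and Hoxb4, with 13.9, 12.6, 14.3 and 13 CPM in LSK cells and 12, 9.54, 11.1 and 9.36 CPM in progenitors, did not pass (adjusted p = 0.0580).

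Receptors for cytokines were called in both directions. Of 25 tested, 12 were called higher and 5 lower, or 5 and 3 against a fold of 1.5. The higher share was 48.0%, beside 19.0% over all genes, while the lower share of 20.0% is near the 18.6% over all genes. Besides Flt3, Il1r1, the receptor for interleukin 1, had 30.7, 40.5, 20.9 and 28.4 CPM in LSK cells, against 6.07, 6.78, 3.91 and 4.85 CPM in progenitors, a fold of 5.53. Epor, the erythropoietin receptor, had 26.9, 28.0, 24.8 and 31.7 CPM in LSK cells, against 73.5, 104, 61.8 and 90.5 CPM in progenitors (-1.54 ± 0.10, adjusted p = 2.15e-08). Ifngr1, a chain of the interferon gamma receptor, had a log2 fold change of -1.02 ± 0.07, with between 133 and 151 CPM in LSK cells and between 270 and 312 CPM in progenitors. Csf1r, the receptor for the macrophage growth factor, had a log2 fold change of -0.48 ± 0.11 and was called lower, a call lost without the block (adjusted p = 0.170).

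Genes of niche adhesion and homing were mixed, with 6 of 17 called higher and 4 lower, or 2 lower without the block. These shares of 35.3% and 23.5% stand beside 19.0% and 18.6% over all genes. Esam, an endothelial type adhesion molecule of stem cells, had 16, 12.9, 12.3 and 11.6 CPM in LSK cells, against 2.23, 1.61, 1.78 and 1.17 CPM in progenitors, a fold of 7.80. Vcam1, the ligand of the integrin VLA-4 and a gene also of macrophages and stroma, had 2.67, 5.06, 4.44 and 4.87 CPM in LSK cells, against 11.1, 19.2, 25.7 and 13.6 CPM in progenitors. It had a log2 fold change of -1.99 ± 0.19 (adjusted p = 1.12e-06).

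**Figure D3:**
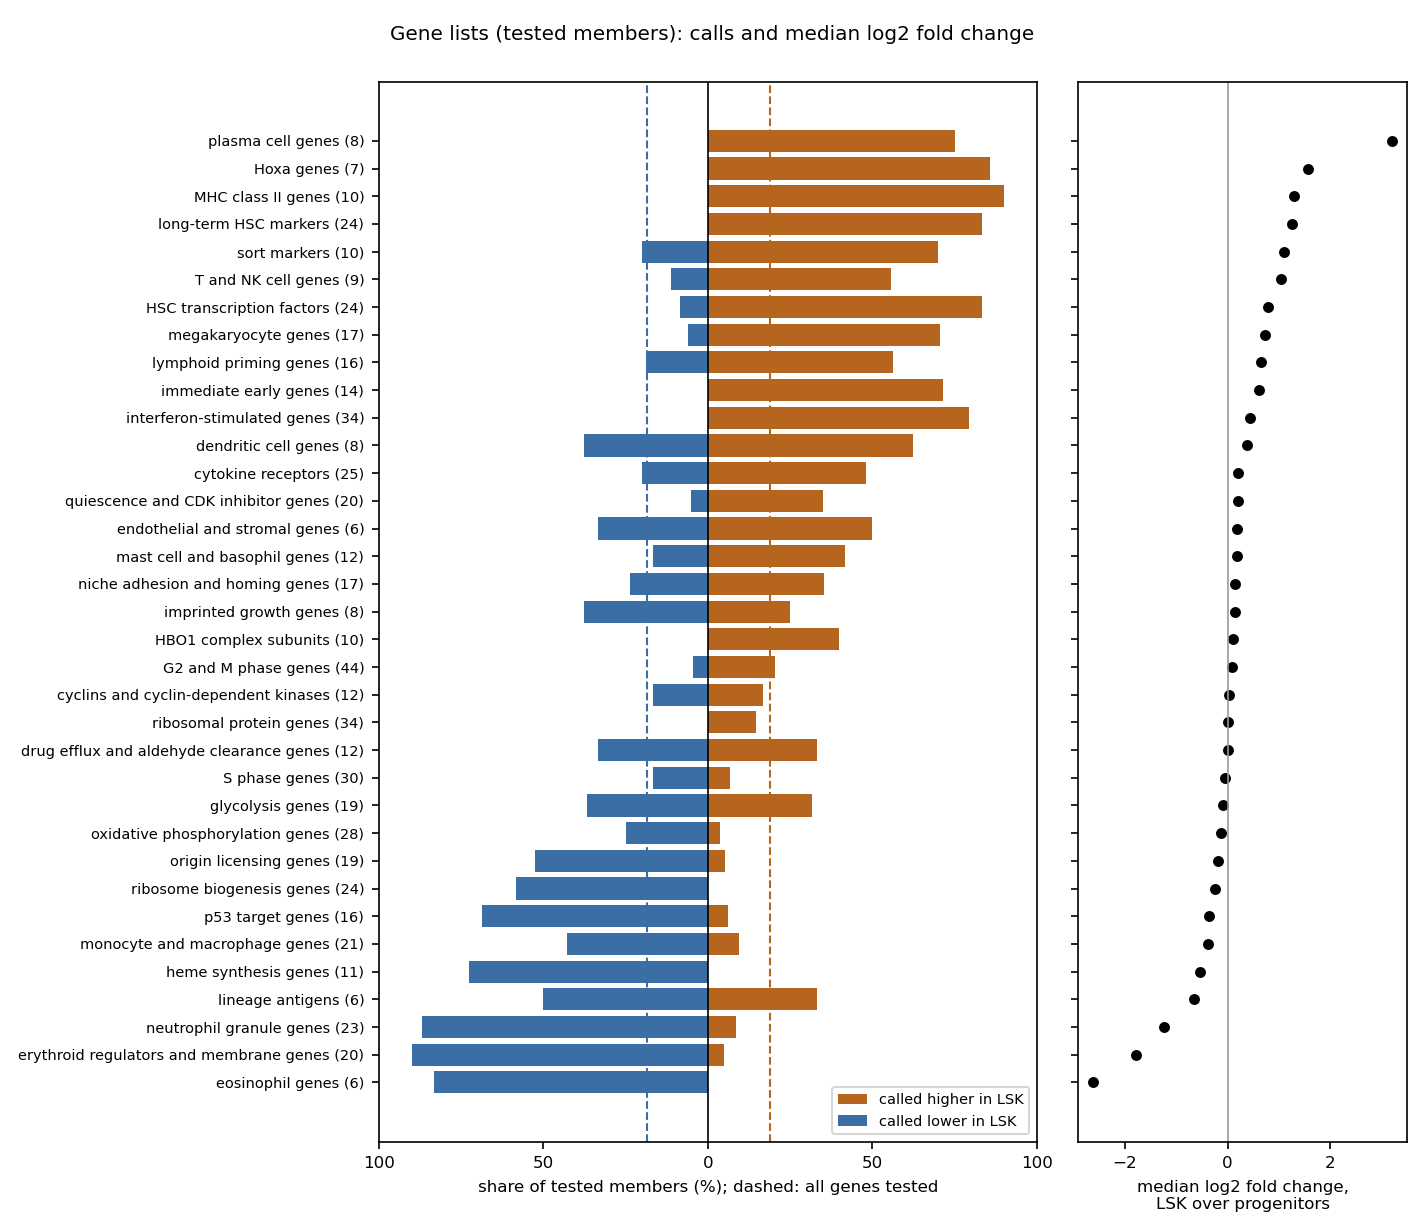
Left, the percent of the tested members of each list called higher in LSK cells (brown, to the right of 0) or lower (blue, to the left), with dashed lines at 19.0% and 18.6% for all genes tested. Right, the median log2 fold change of each list. The 35 lists with at least 6 tested members are ordered by that median, from the plasma cell genes at 3.20 to the eosinophil genes at -2.62. The plasma cell list was chosen after its values were seen, so its place is a description only.

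Lymphoid priming, the early switching on of lymphocyte genes in multipotent cells, showed in LSK cells. Of 16 tested genes, 9 were called higher and 3 lower, and 6 were higher against a fold of 1.5 and none lower. The 3 lower calls were not made without mouse 1 or without mouse 2. Dntt, the terminal transferase that adds bases to antigen receptor joints, had 89.2, 119, 152 and 119 CPM in LSK cells, against 0.537, 2.53, 0.355 and 1.84 CPM in progenitors. Outside the immunoglobulin genes, this 95.2-fold difference was the largest of any called gene whose mean level reached 3 log2 CPM (log2 fold change 6.57 ± 0.23, adjusted p = 5.80e-11). Dntt lies on chromosome 19 at 41029275 to 41059525 of mm10. Rag2, of the recombinase that cuts those joints, was higher by 2.39 ± 0.37, with between 3.37 and 4.34 CPM in LSK cells and between 0.230 and 1.15 CPM in progenitors. Satb1, a chromatin organiser of lymphoid lineages, was higher by 1.48 ± 0.12 and Lsp1, an actin-binding protein of leukocytes, by 2.05 ± 0.10. Il7r, the interleukin 7 receptor chain, had 1.86, 3.18, 4.05 and 1.41 CPM in LSK cells and 0.230, 2.30, 0.533 and 0.167 CPM in progenitors, with progenitors of mouse 2 overlapping the LSK values (adjusted p = 0.00383, and 0.0648 without the block).

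Most B cell genes and many T and NK cell genes were under the filter. Of 14 B cell genes only 4 passed the filter and 1 was called higher. Of 20 T and NK cell genes 9 passed, with 5 called higher and 1 lower. Summed over that list, levels ran from 179 to 209 CPM in LSK cells and from 195 to 271 CPM in progenitors. Lck, a kinase of T cells, had 18.1, 24.4, 18.7 and 17.3 CPM in LSK cells, against 2.53, 4.02, 2.75 and 2.84 CPM in progenitors, a fold of 6.48, while Cd3e stayed at or under 0.465 CPM throughout.

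MHC class II genes, which present antigen to helper T cells, were higher in LSK cells. Of 10 genes 9 were called higher and none lower, 7 of them against a fold of 1.5, with a median log2 fold change of 1.29. Cd74, the invariant chain, had 61.5, 55.5, 63.2 and 41.4 CPM in LSK cells, against 11.5, 36.4, 7.28 and 7.94 CPM in progenitors. Progenitors of mouse 2 stood apart towards the LSK level, in Cd74 as in H2-Aa. H2-Aa, a class II alpha chain, had 36.3, 26.3, 28.4 and 30.1 CPM in LSK cells, against 4.38, 12.6, 3.46 and 3.34 CPM in progenitors (2.50 ± 0.27, adjusted p = 4.59e-06). Ciita, the activator of these genes, was higher by 2.00 ± 0.35, with between 3.97 and 5.34 CPM in LSK cells and between 0.501 and 2.07 CPM in progenitors.

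Megakaryocyte genes, which make platelets, were higher in LSK cells. Of 17 tested, 12 were called higher and 1 lower, with 5 higher against a fold of 1.5 and a median log2 fold change of 0.73. Without mouse 4 the higher calls were 8, and in fits over 16 and 32 libraries they were 6 and 7. Plek, the platelet kinase substrate pleckstrin, had 218, 197, 162 and 201 CPM in LSK cells, against 112, 75.5, 71.8 and 78.2 CPM in progenitors, a fold of 2.33. Mmrn1, a platelet granule protein, was higher by 2.20 ± 0.13, with between 22.3 and 37.2 CPM in LSK cells and between 3.82 and 8.98 CPM in progenitors. Itga2b, the integrin CD41, had 342, 287, 311 and 336 CPM in LSK cells and 304, 158, 143 and 168 CPM in progenitors. Progenitors of mouse 1 were far above those of the other mice in Itga2b, as they were in Plek (adjusted p = 8.33e-05 for Itga2b). Gp9, a subunit of the von Willebrand factor receptor, was higher by 1.24 ± 0.19. Pf4, platelet factor 4, was higher in 3 of 4 mice (0.65 ± 0.16, adjusted p = 0.00518), a call lost without mouse 4 (0.0545) and without the block (0.0922).

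Red cell genes were lower in LSK cells almost throughout. Of 20 tested erythroid regulators and membrane genes, 18 were called lower and 1 higher, and 17 were lower against a fold of 1.5. Their median log2 fold change was -1.79, and within mice 1 to 4 it was -1.89, -1.91, -1.85 and -1.98. Values of 17 of the 20 did not overlap between the populations, beside 27.4% of all genes tested. The count of lower calls stayed between 17 and 19 in every alternative run. Together the genes summed to 1733, 1696, 1352 and 1818 CPM in LSK cells, against 3647, 3998, 2860 and 4203 CPM in progenitors. The globin genes Hba-a1, Hba-a2 and Hbb-bs, which share reads between near-identical copies, stayed under the filter with at most 1.92 CPM. The anion exchanger gene Slc4a1 did so too. The listed genes Ahsp and Hbb-bt were not among the genes counted. How shared reads were counted is not stated, so the low globin counts do not give the level of globin RNA.

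The upstream sequence of 6 genes that were lower in LSK cells is shown because GATA1 and KLF1, which bind GATA motifs and CACCC boxes in red cells, are members of this list. Each line gives the 250 bases before the gene start in RefSeq on GRCm38.p6, 5′ to 3′ on the strand of the gene. Capitals mark AGATAA as well as TGATAA, both GATA motifs, and the box CACACCC, on either strand. A match on the opposite strand reads as TTATCT for the first, as TTATCA for the second and as GGGTGTG for the box. Klf1 lies at chr8:84901732-84901981 on the + strand, Epor at chr9:21963577-21963826 on the - strand, Ermap at chr4:119189996-119190245 on the - strand, Rhag at chr17:40810899-40811148 on the + strand, Cpox at chr16:58669958-58670207 on the + strand and Pklr at chr3:89135892-89136141 on the + strand.
Klf1: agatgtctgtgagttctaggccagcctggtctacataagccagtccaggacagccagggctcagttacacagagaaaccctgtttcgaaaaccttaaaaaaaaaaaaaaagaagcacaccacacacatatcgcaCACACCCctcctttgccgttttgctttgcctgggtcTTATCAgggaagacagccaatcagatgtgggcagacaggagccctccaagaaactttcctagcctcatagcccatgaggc
Epor: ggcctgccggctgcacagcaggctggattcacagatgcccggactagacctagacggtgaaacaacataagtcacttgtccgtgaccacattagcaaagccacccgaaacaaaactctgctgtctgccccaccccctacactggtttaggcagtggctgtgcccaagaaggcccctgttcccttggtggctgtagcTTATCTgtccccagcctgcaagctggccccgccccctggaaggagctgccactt
Ermap: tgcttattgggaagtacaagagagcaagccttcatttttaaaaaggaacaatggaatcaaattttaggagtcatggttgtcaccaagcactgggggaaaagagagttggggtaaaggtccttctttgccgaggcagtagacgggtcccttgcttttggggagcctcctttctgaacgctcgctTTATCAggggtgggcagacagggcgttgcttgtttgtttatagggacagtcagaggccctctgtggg
Rhag: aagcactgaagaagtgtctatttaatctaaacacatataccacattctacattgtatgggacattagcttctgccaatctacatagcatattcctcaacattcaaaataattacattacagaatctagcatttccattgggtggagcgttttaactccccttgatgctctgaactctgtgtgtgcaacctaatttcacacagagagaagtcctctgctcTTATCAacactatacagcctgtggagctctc
Cpox: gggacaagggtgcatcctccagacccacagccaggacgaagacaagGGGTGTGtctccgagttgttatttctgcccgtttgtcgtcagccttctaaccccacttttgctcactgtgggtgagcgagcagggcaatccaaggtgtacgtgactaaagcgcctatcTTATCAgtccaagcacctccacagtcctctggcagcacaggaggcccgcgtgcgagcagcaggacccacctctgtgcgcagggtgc
Pklr: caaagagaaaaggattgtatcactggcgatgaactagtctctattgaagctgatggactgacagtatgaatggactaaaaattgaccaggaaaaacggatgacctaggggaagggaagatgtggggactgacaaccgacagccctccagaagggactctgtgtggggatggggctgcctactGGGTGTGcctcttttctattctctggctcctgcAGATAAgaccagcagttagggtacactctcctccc
In windows of 300 bases, from 250 before to 50 after the start, at least 1 of these 3 motifs stood in 25.5% of all 27025 promoters, in 17.8% of the 9919 of tested genes and in 18.4% of the 1925 of genes called lower. Of 31 tested genes of the erythroid and heme lists 21 had a promoter in the table, and 8 of these held a motif, 7 of 13 erythroid and 1 of 8 heme genes. The 6 genes printed were picked from genes with a match, and Pklr among them is a member of neither list and not part of these counts. The matches in them are therefore a description only, and a match is not a bound site.

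Among regulators, Klf1, the Krüppel-like activator of red cell genes, had 41.3, 47.4, 37.0 and 56.0 CPM in LSK cells, against 151, 181, 120 and 172 CPM in progenitors (-1.78 ± 0.08, adjusted p = 6.58e-10). Its printed window holds TGATAA on the opposite strand, 80 bases before the start, and CACACCC 116 bases before it. Gata1, the master GATA factor of the branch, had a log2 fold change of -1.01 ± 0.08, with between 52.9 and 76.3 CPM in LSK cells and between 91.0 and 147 CPM in progenitors. Nfe2, a bZIP factor shared with megakaryocytes, was the 1 member called higher (0.32 ± 0.07, adjusted p = 0.00267). Tfrc, the transferrin receptor that brings in iron, had a log2 fold change of -1.01 ± 0.07.

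Among membrane and enzyme genes, Car1, carbonic anhydrase 1, had 149, 155, 114 and 198 CPM in LSK cells, against 643, 702, 505 and 835 CPM in progenitors. Its level was 4.37-fold lower in LSK cells, with a spread that followed the mouse in both populations (-2.13 ± 0.06, adjusted p = 1.68e-11). Car1 lies on chromosome 3 at 14766214 to 14808365 of mm10. Ermap, the Scianna blood group protein, had 24.5, 26.4, 21.0 and 45.2 CPM in LSK cells, against 181, 253, 152 and 291 CPM in progenitors (-2.92 ± 0.09, adjusted p = 2.51e-11), and its window holds TGATAA 67 bases before the start. Rhag, the Rh-associated glycoprotein, had 4.99, 3.08, 4.34 and 7.39 CPM in LSK cells, against 29.4, 47.2, 41.1 and 63.7 CPM in progenitors. Mouse 4 was the highest in both populations in all 3 genes. Ank1, the ankyrin of the red cell skeleton, had a log2 fold change of -2.87 ± 0.13, and Cldn13, a claudin of erythroid cells, one of -3.50 ± 0.22, with between 0.894 and 2.36 CPM in LSK cells and between 9.98 and 21.1 CPM in progenitors. Car2, carbonic anhydrase 2, had a smaller log2 fold change of -0.75 ± 0.07.

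Heme synthesis enzymes were lower too. Of 11 tested genes 8 were called lower and none higher, 4 of them against a fold of 1.5, with a median of -0.53. Cpox, coproporphyrinogen oxidase, had 74.0, 76.5, 63.0 and 75.4 CPM in LSK cells, against 197, 261, 204 and 248 CPM in progenitors (-1.65 ± 0.08, adjusted p = 8.45e-10). Alas1, the housekeeping form of the rate-limiting enzyme, had 173, 134, 269 and 175 CPM in LSK cells, against 386, 383, 668 and 386 CPM in progenitors, with mouse 3 the highest in both populations. Fech, ferrochelatase, had a log2 fold change of -0.87 ± 0.08. Alas2, the red cell form, stayed under the filter with at most 1.07 CPM in a library. Pklr, pyruvate kinase of red cells and liver and no member of either list, had 7.08, 9.43, 7.92 and 15.5 CPM in LSK cells, against 74.9, 104, 73.8 and 124 CPM in progenitors (-3.25 ± 0.10, adjusted p = 2.51e-11).

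Granulocyte genes were lower in LSK cells as well. Of 23 tested neutrophil granule genes, 20 were called lower and 2 higher, 17 and 1 against a fold of 1.5, with a median of -1.24. Their summed level was 7817, 6119, 12594 and 8376 CPM in LSK cells, against 15930, 15769, 28226 and 16611 CPM in progenitors. Mouse 3 was far above the other mice in both populations, and without it the lower calls were also 20. In a fit over all 32 libraries they were 11.

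Mpo, myeloperoxidase, had 4660, 3521, 7662 and 4980 CPM in LSK cells, against 9880, 8837, 16772 and 9319 CPM in progenitors (-1.11 ± 0.06, adjusted p = 7.84e-09). The level was 2.16-fold lower in LSK cells, and LSK cells of mouse 3 came near the progenitors of mouse 2. Elane, neutrophil elastase, had 422, 308, 910 and 519 CPM in LSK cells, against 1568, 1763, 3483 and 1872 CPM in progenitors (-2.05 ± 0.09, adjusted p = 6.62e-10). Prtn3 and Ctsg, the related proteases, had log2 fold changes of -1.23 ± 0.07 and -1.04 ± 0.07, and Cebpe, the factor of late granules, one of -1.69 ± 0.12. Padi4, a histone deiminase of neutrophils, ran against the list, with 92.7, 90.1, 75.1 and 64.7 CPM in LSK cells and 22.2, 20.7, 21.0 and 16.1 CPM in progenitors (2.01 ± 0.09, adjusted p = 6.27e-10). Csf3r, the G-CSF receptor, was the other higher call (0.31 ± 0.08), lost without mouse 2 (adjusted p = 0.0602).

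Monocyte genes were less uniform. Of 21 tested 9 were called lower and 2 higher, with 4 lower against a fold of 1.5 and 10 not called, and without the block the lower calls were 4. Ly6c2, the monocyte antigen Ly6C, had 128, 94.4, 368 and 160 CPM in LSK cells, against 376, 471, 897 and 487 CPM in progenitors (-1.68 ± 0.12, adjusted p = 4.85e-08). F13a1, coagulation factor XIII of monocytes, had a log2 fold change of -0.95 ± 0.10. Irf8, the factor that selects the monocyte path, had 126, 123, 226 and 154 CPM in LSK cells and 115, 174, 262 and 157 CPM in progenitors, and was not called (adjusted p = 0.191). Ccr2, the chemokine receptor of monocytes, had 101, 99.6, 146 and 134 CPM in LSK cells and 75.9, 134, 137 and 127 CPM in progenitors.

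**Figure D4:**
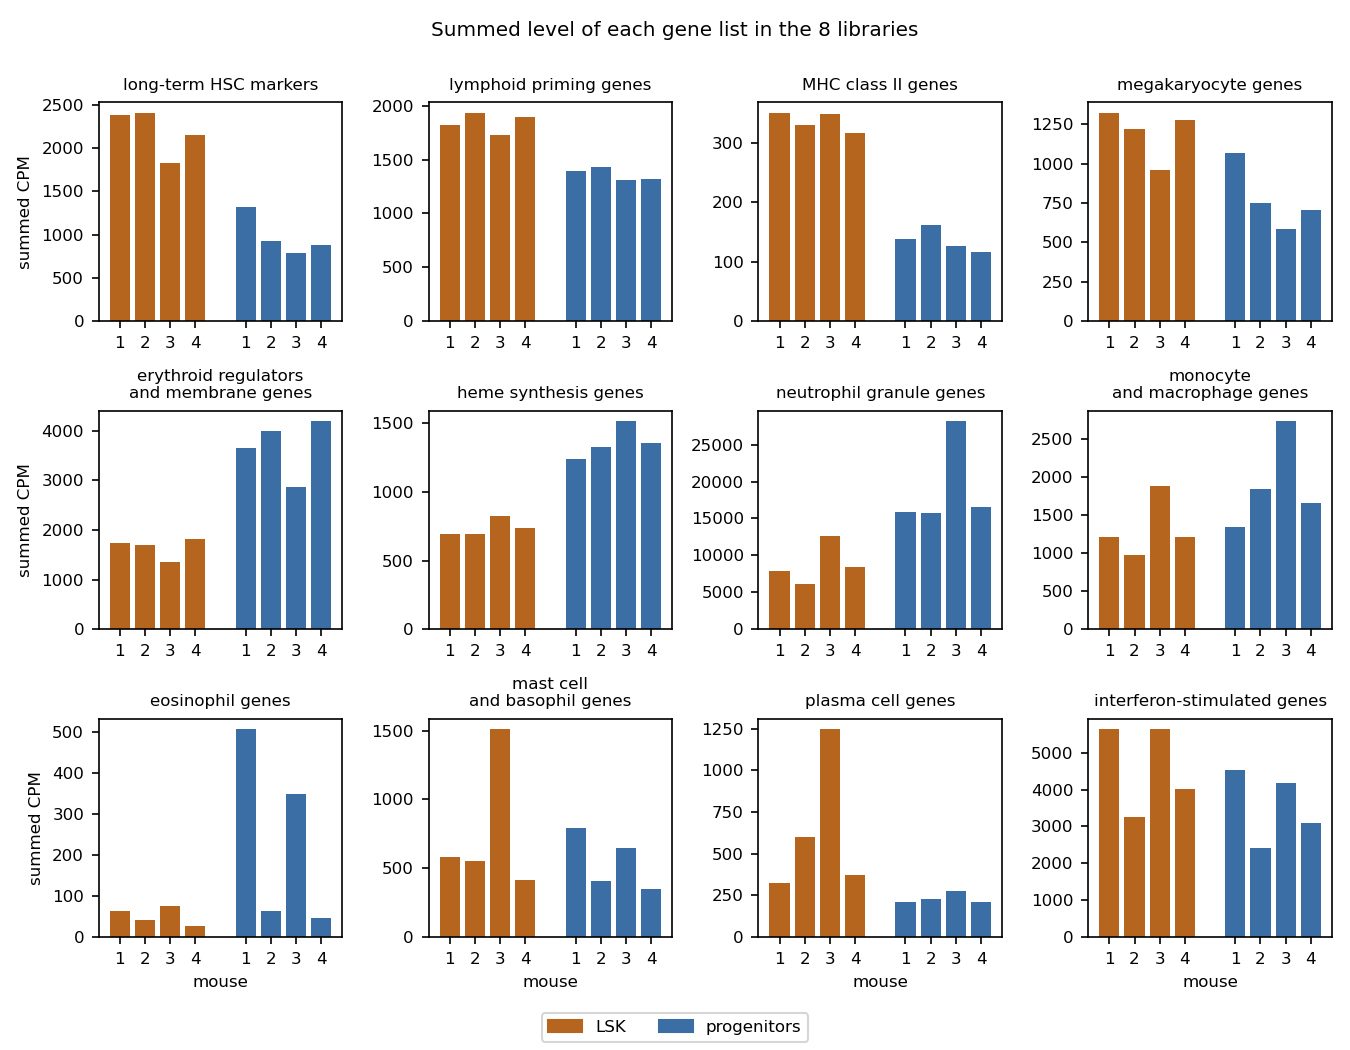
Bars give the summed CPM of 12 gene lists in each library, with LSK cells of mice 1 to 4 left (brown) and progenitors of mice 1 to 4 right (blue), each axis from 0. Erythroid and neutrophil genes are higher in every progenitor library. Eosinophil genes stand out in progenitors of mice 1 and 3, mast cell and basophil genes and plasma cell genes in LSK cells of mouse 3, and neutrophil genes in both libraries of mouse 3.

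Some lists rested on a few libraries. Eosinophil genes were lower in LSK cells in 5 of 6 tested, but their summed level was 509 and 349 CPM in progenitors of mice 1 and 3 and 63.8 and 45.8 CPM in those of mice 2 and 4, beside 27.5 to 76.9 CPM in LSK cells. Epx, eosinophil peroxidase, had 6.62, 3.97, 11.5 and 0.786 CPM in LSK cells and 143, 8.73, 75.2 and 3.76 CPM in progenitors. It was lower in LSK cells of all 4 mice, with overlap between the populations (-2.97 ± 0.34, adjusted p = 7.19e-06). Prg2, the eosinophil major basic protein, had a log2 fold change of -2.43 ± 0.26 with the same library pattern. Lower eosinophil calls numbered 5 without mouse 1 and 5 without mouse 3.

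Basophil proteases ran the other way. Prss34, mast cell protease 11, had 80.4, 131, 660 and 46.2 CPM in LSK cells and 73.5, 11.4, 92.6 and 8.61 CPM in progenitors. Mcpt8, mast cell protease 8 of basophils, had 46.9, 61.6, 273 and 31.7 CPM in LSK cells and 50.4, 16.9, 59.1 and 15.5 CPM in progenitors. LSK cells of mouse 3 were far above the other LSK libraries in both, the populations overlap, and neither call held without the block (adjusted p = 0.0816 for Prss34 and 0.111 for Mcpt8). Of the 12 tested mast cell and basophil genes 5 were called higher and 2 lower, or 4 and 2 without mouse 3 and 2 and 1 without the block.

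A list of 15 plasma cell genes was chosen after their values were seen. Of the 8 members tested 6 were called higher in LSK cells and none lower, beside 19.0% and 18.6% over all genes. The 7 members under the filter were Mzb1, Prdm1, Irf4, Tnfrsf17, Derl3, Ighg1 and Ighg3. Igha, the constant region of immunoglobulin A, had 51.9, 106, 401 and 24.8 CPM in LSK cells and 20.0, 0, 5.77 and 3.43 CPM in progenitors. Jchain, which joins antibody subunits, had 9.29, 39.9, 123 and 10.8 CPM in LSK cells and 6.14, 0.460, 1.51 and 2.01 CPM in progenitors. Ighg2b, an immunoglobulin G constant region, had 5.92, 27.8, 69.99 and 11.1 CPM in LSK cells, against 1 count in all in progenitors. LSK cells of mouse 3 were the highest in each, and they alone held counts of Ighg1, a gene named after its values were seen, at 26.8 CPM. Immunoglobulin genes share sequence, so counts may be split between them. Cd79a, of the B cell receptor, stayed at or under 1.26 CPM in LSK cells and 1.95 CPM in progenitors. The part of these transcripts, and of those of basophils and eosinophils, in other differences was not tested.

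Interferon-stimulated genes were slightly higher in LSK cells of every mouse. Of 34 genes 27 were called higher and none lower, but only 6 against a fold of 1.5, with a median of 0.44. Levels differed more between mice than between both cell types of a mouse, and without the block 7 were called. Summed levels were 5643, 3249, 5644 and 4006 CPM in LSK cells and 4526, 2412, 4186 and 3095 CPM in progenitors, which is high in mice 1 and 3 and low in mouse 2 in both populations. Ifit3, an antiviral effector, was the largest, with 60.4, 26.1, 79.1 and 32.8 CPM in LSK cells, against 18.6, 6.09, 17.1 and 8.36 CPM in progenitors (1.99 ± 0.12, adjusted p = 9.62e-09).

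Immediate early genes, which respond within minutes to stimulation and to handling of cells, were higher in 10 of 14 tested and lower in none, or 3 higher without the block. Jun, an AP-1 subunit, had 195, 147, 179 and 818 CPM in LSK cells and 150, 119, 83.3 and 497 CPM in progenitors. Both libraries of mouse 4 stood far above the rest, and the LSK library was the higher in each mouse (0.63 ± 0.10, adjusted p = 2.12e-04, and 0.492 without the block). Fos followed the same pattern, with 103, 36.2, 70.6 and 389 CPM in LSK cells and 78.8, 35.1, 28.6 and 186 CPM in progenitors. Without mouse 4 the higher calls were 9.

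Targets of p53 were lower in LSK cells. Of 16 such genes 11 were called lower and 1 higher, 3 of them lower against a fold of 1.5, with a median of -0.36. Ccng1, cyclin G1, had 159, 135, 129 and 144 CPM in LSK cells, against 250, 298, 227 and 271 CPM in progenitors (-0.88 ± 0.08, adjusted p = 6.28e-07). Mdm2, the ligase that removes p53, had a log2 fold change of -0.36 ± 0.08, with between 68.2 and 84.9 CPM in LSK cells and between 88.5 and 106 CPM in progenitors. Cdkn1a, described among the quiescence genes, belongs to this list as well.

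Genes of growth and energy differed by small amounts. Of 24 ribosome biogenesis genes 14 were called lower and none higher, with a median of -0.24 and none against a fold of 1.5. The lower calls were 7 without mouse 2 and 9 without mouse 4. Ncl, nucleolin, had 2552, 2531, 2844 and 2558 CPM in LSK cells and 2654, 3235, 3194 and 3541 CPM in progenitors (-0.26 ± 0.07, adjusted p = 0.00616), a call lost without mouse 2 (0.0699) and without the block (0.0605). Of 28 oxidative phosphorylation genes 7 were called lower, or 25.0%, beside 18.6% over all genes, and 1 higher. Ndufs1, of respiratory complex I, had 131, 145, 164 and 147 CPM in LSK cells, against 182, 195, 195 and 206 CPM in progenitors (-0.41 ± 0.07). Of 19 glycolysis genes 6 were called higher and 7 lower, or 3 and 6 without mouse 2 and 3 and 4 without the block. Pkm, the pyruvate kinase of most tissues, was higher by 0.31 ± 0.06.

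Subunits of the HBO1 complex differed by small amounts, and those called were all higher in LSK cells. Of 10 genes 4 were called higher and none lower, beside 19.0% and 18.6% over all genes. None passed against a fold of 1.5, and the median log2 fold change was 0.11. Without mouse 2 the higher calls were 2. Ing4, the subunit that reads methylated histone H3, had 47.7, 59.97, 65.1 and 57.5 CPM in LSK cells, against 44.5, 37.8, 41.8 and 38.9 CPM in progenitors (0.49 ± 0.10, adjusted p = 0.00136). The scaffold genes Jade2 and Brpf3 and the core subunit gene Meaf6 were the other calls, at 0.35 ± 0.08, 0.32 ± 0.10 and 0.30 ± 0.09. None of these 3 held in the fit over 16 control libraries (adjusted p between 0.132 and 0.283), and without the block Jade2 and Brpf3 did not hold either (0.0617 and 0.0867). Meaf6 lost its call without mouse 1 or 2 (0.0546 and 0.0552), and Brpf3 without mouse 2 or 4 (0.104 and 0.133).

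Outside the lists, the rule for named genes brought up these among the higher ones. Shisa8, a gene of the Shisa membrane adaptor family, had 35.1, 49.3, 28.7 and 36.9 CPM in LSK cells, against 0.384, 1.38, 0.533 and 1.42 CPM in progenitors (5.36 ± 0.21, adjusted p = 2.13e-10). Col4a1 and Col4a2, the neighbouring chains of collagen IV, were higher by 4.44 ± 0.18 and 3.61 ± 0.23. Adgrl4, an adhesion receptor of endothelial and stem cells, had 341, 345, 244 and 281 CPM in LSK cells, against 29.4, 27.6, 41.3 and 35.6 CPM in progenitors. Gcnt2, a glycosyltransferase of the I blood group, had 177, 175, 116 and 142 CPM in LSK cells, against 32.2, 26.5, 22.1 and 28.4 CPM in progenitors. Pglyrp2, an amidase of bacterial peptidoglycan, was higher by 3.45 ± 0.13.

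Among the largest falls outside the lists, 4 genes were lowest in progenitors of mouse 1 and highest in those of mouse 4. Tlcd4 had 0.581, 0.397, 0.386 and 1.49 CPM in LSK cells, against 7.14, 16, 12 and 25.5 CPM in progenitors (-4.40 ± 0.27, adjusted p = 1.22e-08). Atp7b, a copper transporter, had a log2 fold change of -3.57 ± 0.23. Add2, adducin 2 of the red cell membrane skeleton, had 3.25, 3.67, 2.70 and 9.51 CPM in LSK cells, against 36.3, 57.3, 39.98 and 72.1 CPM in progenitors. Sphk1, which makes sphingosine 1-phosphate, had a log2 fold change of -3.33 ± 0.16, with between 3.83 and 13.8 CPM in LSK cells and between 39.5 and 120 CPM in progenitors.

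The difference between LSK cells and progenitors was then compared between CreER controls and Mx1Cre controls by the interaction in 16 libraries, with each mouse as a block. It differed in 326 of 13999 genes, or 2.33%. Both interactions use the same 8 libraries of CreER controls. The LSK minus progenitor difference was more positive in CreER controls in 108 (0.771%) and more negative in 218 (1.56%). Cre line, inducing agent and mice all change together here and cannot be told apart. A progenitor library of Mx1Cre controls, that of replicate 1, stood apart from its group, with a median correlation of 0.927 with the others, against 0.969 to 0.981 in the rest of that group. Without it and its LSK partner the count was 1239, which held all 326. The count was 117 without the block and between 86 and 170 when a CreER control mouse was left out.

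Platelet and stem cell genes were among those more negative in CreER controls. Of 18 tested megakaryocyte genes 9 were called, all more negative in CreER controls, with a median log2 fold change of 0.68 in CreER controls and 2.14 in Mx1Cre controls. F2r, a thrombin receptor, averaged 166 ± 42.2 CPM in LSK cells and 176 ± 61.1 CPM in progenitors of CreER controls (SD, n = 4), and 50.8 ± 9.91 and 7.30 ± 1.52 CPM in LSK cells and progenitors of Mx1Cre controls. Its log2 fold change was -0.05 in CreER controls and 2.80 in Mx1Cre controls (difference -2.85 ± 0.17, adjusted p = 6.19e-05). Gata2 averaged 462 ± 33.0 CPM in LSK cells and 438 ± 174 CPM in progenitors of CreER controls, and 209 ± 36.2 and 48.6 ± 10.5 CPM in those of Mx1Cre controls (difference -1.95 ± 0.24, adjusted p = 0.00270). In both genes the Mx1Cre control averages were the lower ones in each population, and the gap was wider in progenitors.

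Of 24 long-term stem cell markers 5 were called more negative in CreER controls and none more positive. Medians over the list were 1.23 in CreER controls and 2.73 in Mx1Cre controls. Taken gene by gene, the median difference was smaller, at -0.37. Angpt1 had a log2 fold change of 1.23 in CreER controls and 3.12 in Mx1Cre controls (difference -1.89 ± 0.15, adjusted p = 4.01e-04). Slamf1, which was not called in CreER controls, averaged 4.41 ± 1.07 CPM in LSK cells and 0.280 ± 0.209 CPM in progenitors of Mx1Cre controls (difference -4.28 ± 0.61, adjusted p = 0.00689). Robo3, a guidance receptor, averaged 12.6 ± 3.06 and 9.22 ± 3.02 CPM in LSK cells and progenitors of CreER controls, and 8.49 ± 2.74 and 0.142 ± 0.0940 CPM in those of Mx1Cre controls. Cdkn1a changed sign, at -0.58 in CreER controls and 0.84 in Mx1Cre controls (difference -1.43 ± 0.14, adjusted p = 0.00137). The list of p53 targets, to which it belongs, had medians of -0.37 in CreER controls and 0.45 in Mx1Cre controls. Of its 16 genes 4 were called more negative in CreER controls and none more positive, beside 1.56% and 0.771% of all genes tested.

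Coro1a, Lsp1 and Ly6a were among those more positive. Coro1a, an actin regulator of white cells, had a log2 fold change of 0.69 in CreER controls and -0.54 in Mx1Cre controls (difference 1.23 ± 0.15, adjusted p = 0.00257). Lsp1 was at 2.04 in CreER controls and 0.14 in Mx1Cre controls, and Ly6a at 4.12 and 2.56 (difference 1.56 ± 0.22, adjusted p = 0.00531). Among red cell genes 4 of 22 were more negative in CreER controls, with medians of -1.80 in CreER controls and -1.34 in Mx1Cre controls. Ermap was at -2.93 in CreER controls and -1.57 in Mx1Cre controls (difference -1.36 ± 0.24, adjusted p = 0.0173).

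**Figure D5:**
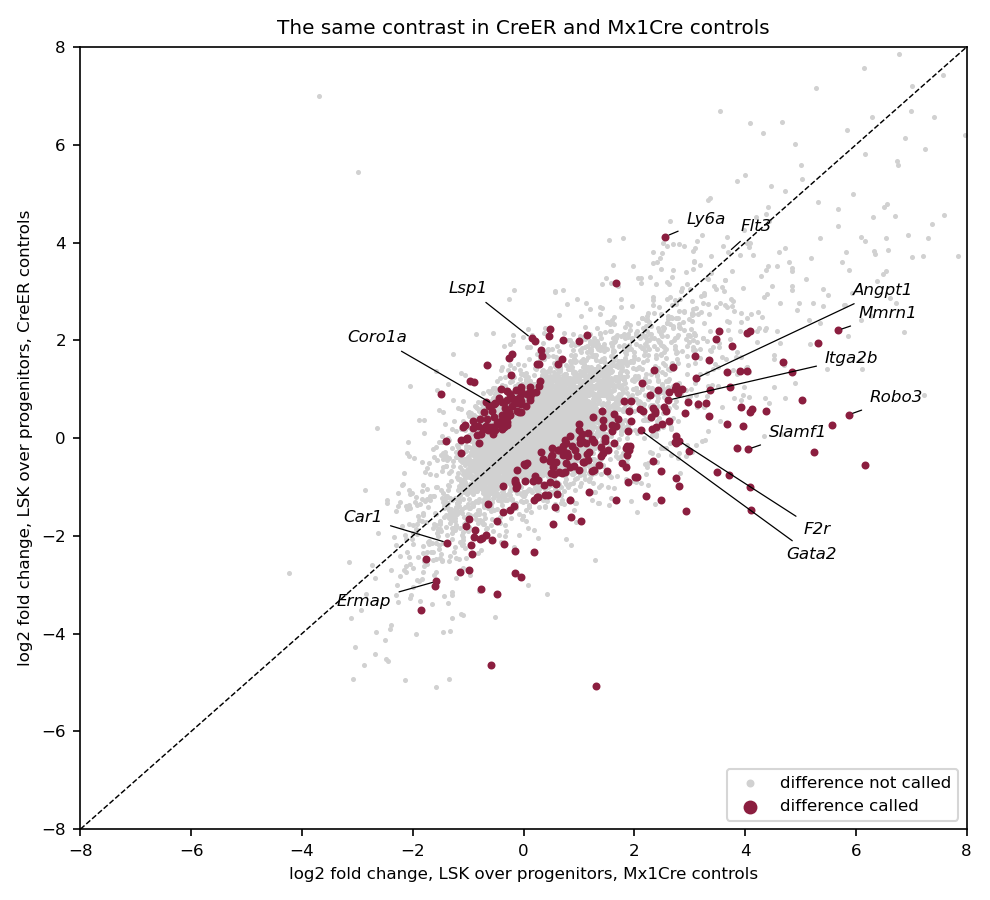
Each point is a gene, with its log2 fold change of LSK over progenitors in CreER controls on the y axis and in Mx1Cre controls on the x axis, and the dashed line marks equal values. Red points are the 326 genes whose difference was called. F2r, Gata2 and Slamf1 lie near 0 on the y axis and above 2 on the x axis, and 6 genes lie beyond the axes.

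Within the CreER line, the same interaction against CreER knockouts, which shares those 8 control libraries, was called in 17 of 13989 genes, or 0.122%. The difference was more positive in CreER controls in 2 (0.0143%) and more negative in 15 (0.107%). The knockouts had 0.870 ± 0.291 CPM of Kat7 in LSK cells and 0.463 ± 0.442 CPM in progenitors, against 69.1 ± 10.2 and 73.0 ± 4.93 CPM in LSK cells and progenitors of CreER controls. In 2 LSK knockout libraries, of replicates 2 and 3, genes on the sex chromosomes went against the sex label, and without these mice the count was 143, of which 16 were among the 17. The count was 0 without the block and 0 without CreER control mouse 2, 3 or 4 or knockout mouse 2 or 4, by edgeR, while between 755 and 1166 genes had an unadjusted p under 0.05 in those fits. It was 382 without knockout mouse 3.

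Monocyte genes made up 5 of the 17, of 22 tested, all more negative in CreER controls. Irf8 averaged 157 ± 48.5 and 176 ± 60.9 CPM in LSK cells and progenitors of CreER controls, and 184 ± 49.0 and 80.2 ± 15.3 CPM in those of CreER knockouts (difference -1.33 ± 0.18, adjusted p = 0.0427). Csf1r averaged 45.1 CPM in LSK cells and 63.7 CPM in progenitors of CreER controls, against 66.7 CPM in LSK cells and 34.4 CPM in progenitors of CreER knockouts. Ccr2 had a log2 fold change of 0.04 in CreER controls, set against 1.33 for the CreER knockouts. In all 3 genes the progenitor average was lower in the knockouts, a difference within progenitors that was not tested. Car2 and Faah were the genes more positive in CreER controls. The log2 fold change of Car2 was -0.75 in CreER controls, set against -1.50 for the CreER knockouts (difference 0.75 ± 0.12, adjusted p = 0.0427), and that of Faah, a hydrolase of fatty acid amides, was 1.68 in CreER controls, set against 0.45 for the CreER knockouts.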

How the data were processed

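RNA of sorted LSK and progenitor cells was sequenced, and the deposited table holds whole-number counts per gene, not normalised by the authors. Per the submitters' processing notes, these counts came from featureCounts on mm10, while no source used here states the aligner or whether strand was counted. Overlapping genes, pseudogene copies, globins and immunoglobulin genes may therefore share reads. The column of each of the 32 libraries equals its own deposited table. Genes without a symbol, 1904 in number, held 3.58% of the counts of the 8 libraries.

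From these counts, edgeR 4.0.16 in R 4.3.3 gave TMM factors, kept genes by filterByExpr with a minimum count of 10 and a minimum total of 15, and fitted quasi-likelihood models. The model for LSK against progenitors had the mouse as a block and the population. A test of the same fit against a fold of 1.5 gave the stricter call, and interactions were tested in 16 libraries each. P-values are two-sided and were adjusted by Benjamini-Hochberg over all genes tested, at 0.05, in each of 3 comparisons. Pairing comes from the animal, since both libraries of a mouse carry its number, and their deviations correlated at 0.225 to 0.418. Scripts were tested on simulated data. Alternatives used DESeq2 1.42.0, limma 3.58.1 (voom), other filters, no block, a correction for exon length, more libraries and leaving out each mouse.

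Genes named are list members, the 12 called genes of largest change whose mean level reached 3 log2 CPM and the 12 of lowest p in each direction, and the 6 of lowest p in each direction of each interaction. Not all of these are printed, some are not reported here, and which ones are was decided with their values known. The comparison, its members and its lists were chosen with earlier results of these data known, and the plasma cell list after its values were seen.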

Additional observations from a re-analysis of the deposited data

Results flagged for a closer look

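Among 346 groups of 4 libraries, 28 held a library far from the other 3 by Dixon's test at the 95% level, which compares the gap to the nearest library with the whole range. Chance gives about 1 in 20 such groups.

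LSK cells of mouse 3 were the outlying library in 10 of these. They were the lowest LSK library for Prdm16 (9.75 CPM), Ccnd1 (52.5 CPM), Cdk6 (55.6 CPM), Mmrn1 (22.3 CPM) and Car2 (341 CPM). They were the highest for F13a1 (253 CPM), Prss34 (660 CPM), Mcpt8 (273 CPM), Ncl (2840 CPM) and the summed mast cell and basophil genes (1510 CPM). Progenitors of the same mouse were the highest progenitor library for Alas1 (668 CPM), Mpo (16800 CPM) and Elane (3480 CPM). They were also the highest for the summed neutrophil granule genes (28200 CPM), drug efflux and aldehyde clearance genes (1230 CPM) and T and NK cell genes (271 CPM).

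LSK cells of mouse 4 were the highest for Cldn13 (2.36 CPM), Jun (818 CPM) and Add2 (9.51 CPM) and the lowest for Nfe2 (223 CPM). Progenitors of mouse 4 were the highest for Jun (497 CPM) and the only progenitor library with a count of Ighg2b (0.0836 CPM). Progenitors of mouse 1 were the highest for Fgd5 (0.614 CPM), Vldlr (2.76 CPM), Plek (112 CPM) and Itga2b (304 CPM). Progenitors of mouse 2 were the highest for Cd74 (36.4 CPM) and H2-Aa (12.6 CPM).

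In CreER controls and Mx1Cre controls the log2 fold change of LSK over progenitors differed by edgeR's interaction test in 33 of the genes examined by name, values being CreER controls minus Mx1Cre controls. Stem cell and platelet genes with a negative difference were Slamf1 (-4.28), Tal1 (-0.87), Gata2 (-1.95), Vwf (-2.70), Tek (-2.44), Angpt1 (-1.89), Mmrn1 (-3.47), Pf4 (-3.29), Itga2b (-1.84) and F2r (-2.85). Robo3 (-5.40), Cavin2 (-3.53) and Slc22a3 (-2.13), outside those lists and named for their low p in this interaction, were negative too. Cycle and growth genes with a negative difference were Cdkn1a (-1.43), Cdk6 (-1.48), Grb10 (-1.54) and Ccng1 (-0.74). Red cell, eosinophil and other genes were Car1 (-0.76), Ermap (-1.36), Cpox (-0.67), Add2 (-1.68), Epx (-2.80), Prg2 (-2.17) and Faah (-1.43). Positive differences were found in Ly6a (1.56), Cd34 (0.98), Lsp1 (1.89), Padi4 (1.79), Adgrl4 (1.5), Coro1a (1.23), Gpr65 (1.26) and Pkm (0.79). Ighg2b had a fitted difference of 9.41 that rests on 1 count in CreER control progenitors and depends on the prior count.

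In CreER controls and CreER knockouts the same test was passed by 9 of the genes examined by name. The difference, CreER controls minus CreER knockouts, was -1.0 in Abcb1b, -1.40 in Csf1r, -1.33 in Irf8, -1.30 in Ccr2, -1.16 in Ms4a6c, -1.34 in F13a1 and -1.52 in Mgl2, and it was 0.75 in Car2 and 1.23 in Faah.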

How the results depend on the processing

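Among the 134 genes examined by name and their 33 and 9 called interaction differences, 4 genes changed sign in an alternative, and none of these was called in either fit. The balance of calls did turn, at 2724 higher and 2772 lower with no filter and 2635 and 2665 with the exon length trend removed. The count of 5005 called genes was 3321 with no replicate block, 2750 in a fit over the 16 control libraries of both Cre lines and 3216 over all 32 libraries, and the cause was not tested. The 2531 higher calls were 1553 over the 16 libraries, and the 2474 lower calls were 1479 with no replicate block, 1197 over the 16 libraries and 1392 over all 32. Leaving out each mouse gave 3671 to 4553 called genes, 2009 to 2377 higher and 1607 to 2176 lower, fewest in total and lower without mouse 2. The 1146 calls against a fold of 1.5 were 744 by DESeq2's Wald test and 947 to 1106 when a mouse was left out. The 326 interaction calls against Mx1Cre controls were 865 by DESeq2's Wald test, 117 with no replicate block, 581 with the exon length trend removed, 86 to 170 without a CreER control mouse (86 without mouse 1) and 119 to 1239 without a Mx1Cre control mouse (119 without replicate 4, 1239 without replicate 1). The 17 interaction calls against CreER knockouts were 119 by DESeq2's Wald test, 105 with no filter, 11 with at least 1 CPM in 4 libraries, 0 with no replicate block, 143 without knockout mice 2 and 3, 0 to 18 without a CreER control mouse and 0 to 382 without a knockout mouse. By edgeR, 755 genes had an unadjusted p under 0.05 where the count was 0 with no replicate block, while DESeq2 was not run there.

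Of 134 genes examined by name, 22 lost their call with no replicate block, 19 over the 16 control libraries, 17 over all 32 and 2 to 8 when a mouse was left out. Beside those named in the report, Cd48 (adjusted p = 0.0886), Cdkn1b (0.0510), Cdk1 (0.559), Fos (0.414), Mcm5 (0.114), Cavin2 (0.103) and Pkm (0.150) lost it with no replicate block in edgeR. All 134 kept their side of the threshold with DESeq2 size factors, DESeq2's Wald test, the exon length correction and the filter on 1 CPM. Removing the exon length trend moved the count of called genes to 5300. Genes with few counts in progenitors, such as Robo4, Nkx2-3 and Ighg2b, are limited by depth.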

Other observations

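Some lists outside the comparisons described above were mixed. Of 8 imprinted growth genes that passed the filter, of 18 listed, 2 were called higher in LSK cells and 3 lower. Grb10, an adaptor that restrains growth factor signals, had 72.5, 60.5, 33.3 and 39.4 CPM in LSK cells, against 140, 140, 78.4 and 89.1 CPM in progenitors. Its log2 fold change was -1.14 ± 0.08, with no overlap, and Phlda2, another growth restraint, had one of -1.40 ± 0.31. The higher calls were Cdkn1c and Ndn. Of 12 drug efflux and aldehyde clearance genes 4 were called in each direction. Abcb1b, a multidrug transporter, had 35.9, 41.7, 30.02 and 36.4 CPM in LSK cells, against 17.0, 25.9, 21.0 and 20.6 CPM in progenitors. Abcg2, the transporter behind the side population of stem cells, had a log2 fold change of 0.03 and was not called.

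Of 8 dendritic cell genes 5 were called higher and 3 lower, or 1 and 1 without the block, and the lower calls were 1 without mouse 1 or 2. Of 6 endothelial and stromal genes that passed the filter, of 15 listed, 3 were called higher and 2 lower. Emcn, the sialomucin endomucin of vessels and stem cells, had 7.32, 7.65, 7.72 and 7.15 CPM in LSK cells, against 0.691, 0.345, 0.355 and 0.418 CPM in progenitors (log2 fold change 3.98 ± 0.31), while the vessel cadherin gene Cdh5 held 13 counts in all in LSK cells and 14 in progenitors. Of 34 ribosomal protein genes, whose copies share reads, 5 were called higher and none lower, with a median log2 fold change of 0.01. Their higher share of 14.7% lies under the 19.0% over all genes, and the count was 1 without mouse 1, 2 without mouse 2, 1 without mouse 3 and 1 without the block. Lineage antigen genes that passed the filter numbered 6, of which 2 were called higher and 3 lower, or 1 and 1 without the block.

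Called genes differed from the rest in exon length. The median was 2844 bases among genes called higher in LSK cells and 3143 bases among those called lower, beside 2664 bases over all genes tested. The median mean level was 4.44 log2 CPM among the higher and 6.06 log2 CPM among the lower ones.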
